A study of Mus musculus with 15 samples.

Results

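The 9 genes described here encode granins and the proteins that help to turn prohormones into mature peptides: Chga, Chgb, Scg2, Scg3 and Vgf (granins and granin-like proteins), Scg5 and Pcsk1n (partners of the prohormone convertases), and Cpe and Pam (processing enzymes). They were taken from the pituitary count matrix by gene symbol, 9 of 55523 features, and where a symbol had more than 1 feature, that with the most counts was used. This touched Pam only, whose second feature held 94 counts in all. The study removed the pituitary enhancer (PE) of Nr5a1, which lies in an intron of that gene and is used in gonadotropes, from the mouse genome with CRISPR/Cas9, and sequenced RNA of the whole pituitary gland. The 15 libraries comprised 4 from PE+/- males, 4 from PE-/- males, 4 from PE+/- females and 3 from PE-/- females. PE+/- mice were the controls, so the controls also lacked the enhancer on 1 chromosome, and mice with 2 intact copies were not analysed here. The age of the animals used for sequencing and the number of animals behind a library were not given in the sources used here, so that a p-value below measures the spread between these libraries.

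Peptide hormones of the pituitary are made as larger precursors and stored in dense-core secretory granules. Granins are acidic proteins that aggregate with hormones in the trans-Golgi network and take part in forming these granules, and several of them are themselves cut into peptides. Prohormone convertases cut the precursors at basic residues, carboxypeptidase E removes the basic residues left at the end, and peptidylglycine alpha-amidating monooxygenase amidates the new end. All endocrine cell types of the anterior lobe hold such granules, and a change in 1 of them is therefore diluted in RNA of the whole gland. In such samples fewer cells of a type and less RNA per cell cannot be told apart.

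Library totals ranged from 12982794 to 30238443 estimated counts. Levels are given as CPM, a gene's counts relative to its TMM-scaled library total. Where genes are compared with each other, levels are per kilobase of an annotated transcript of each gene. Protein-coding transcripts were taken first, then those with the best principal-transcript rank in the annotation (APPRIS), and the longest where several tied. Nr5a1 ran from 33.7 to 80.2 CPM in the PE+/- libraries of both sexes and from 0 to 0.897 CPM in the PE-/- libraries, so every library matched its labelled genotype. The markers of the endocrine cell types were detected in all groups. Of 5 posterior-lobe markers, Avp and Oxt, made in the hypothalamus and carried to that lobe, were at 0 in both female groups, whereas Rax, Col25a1 and Scn7a were detected. The 5 summed to 3.66 to 175 CPM in PE+/- males and 3.84 to 119 CPM in PE-/- males. In females they summed to 6.41 to 18.7 CPM in PE+/- and 2.76 to 5.26 CPM in PE-/- libraries.

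Chgb was the most abundant of the 9 genes per kilobase, with a median of 4063 CPM per kb over the 15 libraries, followed by Scg2 (1356), Scg5 (839), Chga (727), Pcsk1n (292), Cpe (177), Scg3 (91.0), Pam (38.9) and Vgf (0.944 CPM per kb). Chgb lay above Scg2, Scg3 above Pam and Pam above Vgf in 15 of 15 libraries. Scg5 lay above Chga in only 9 of 15 libraries, so the order of these neighbours was not fixed. Together the 9 genes took 1.27% to 2.98% of a library's counts, of which Chgb alone made up 38.0% to 76.6%. Scg5 was the steadiest member, with a highest library 1.38 times its lowest, while the same ratio was 3.15 for Chga, 3.61 for Chgb, 3.84 for Scg3, 10.3 for Cpe, 11.5 for Vgf, 14.9 for Pam, 18.5 for Pcsk1n and 426 for Scg2. Vgf, which encodes a neurosecretory protein precursor, was close to the limit of detection at 17 to 188 counts per library.

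**Figure D1:**
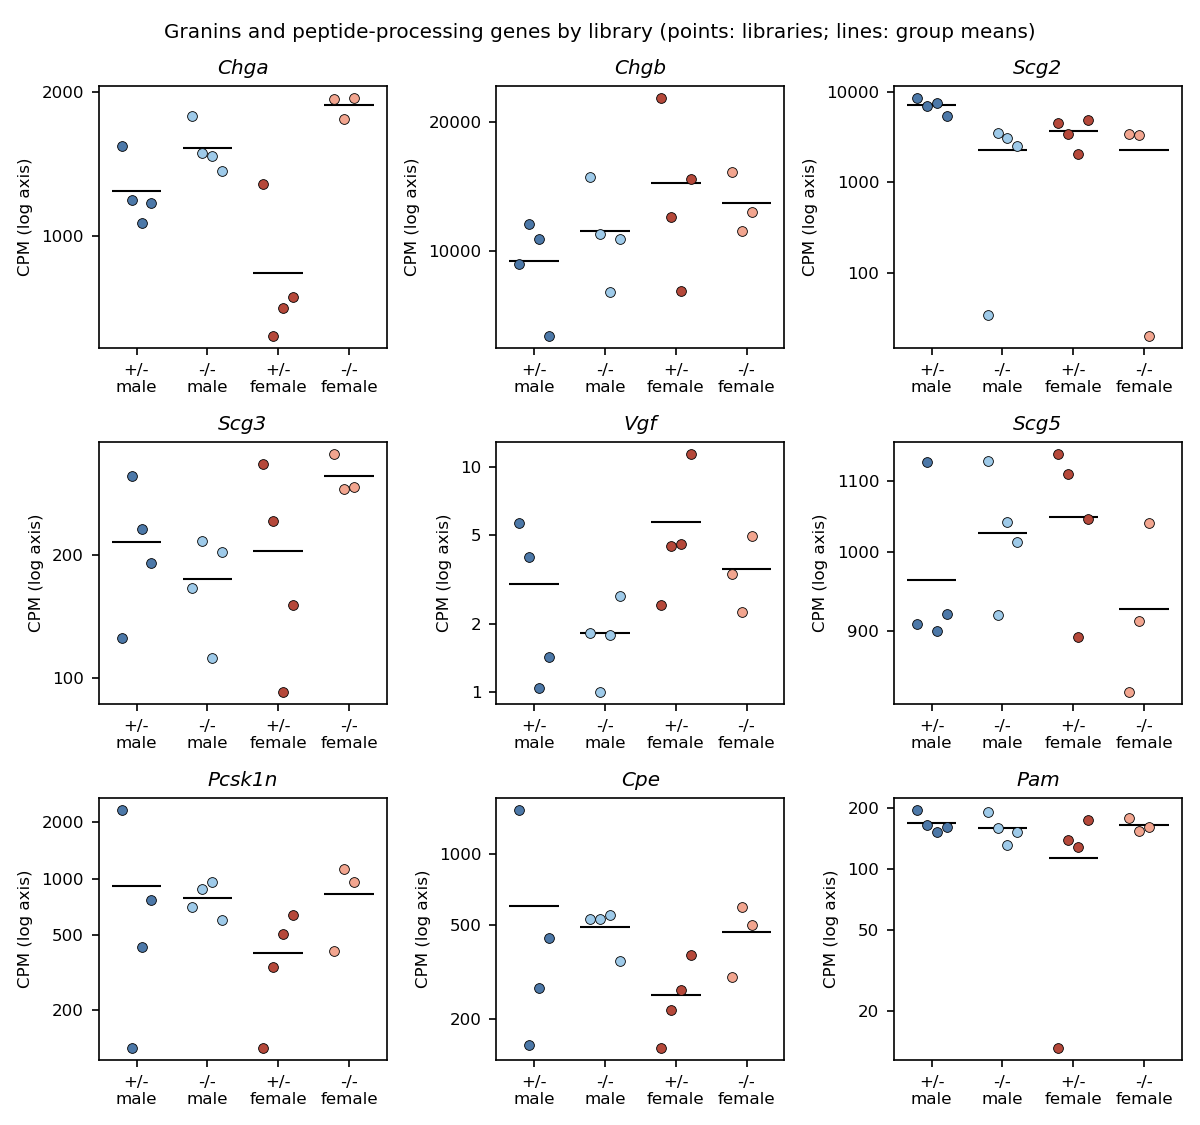
Level of each of the 9 genes in each of the 15 libraries (CPM, log axis, 1 panel a gene); points are libraries and lines are group means. Chga in the PE-/- females (1756 to 1948 CPM) lies above all PE+/- females, and Scg2 is near the bottom of its axis in 1 PE-/- male library (34.3 CPM) and 1 PE-/- female library (19.97 CPM).

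Short stretches of promoter are shown for the 3 granins that the comparisons below turn on, or that share a motif with them. They were read from RefSeq (GRCm38.p6), whose promoter windows (250 bases before to 50 after a start) matched 7 of the 9 genes (not Vgf or Cpe) with 8 windows, 2 of them for Pam. The cyclic AMP response element, written TGACGTCA and searched on both strands, was present in the windows of Scg2 and Chgb, 2 of 8, against 1.79% of all 32851 windows of the same length. Its 5-base core TGACG, which is part of the element on both strands, was present in the windows of 5 genes (Scg2, Scg5, Chgb, Scg3 and Chga), against 20.8% of all windows. The element or core is in capitals, each sequence runs 5′ to 3′ on the strand of its gene, and the site begins 68 bases before the start in Scg2 (chr1:79440057-79440124, minus strand), 72 in Chgb (chr2:132781540-132781607, plus strand) and 44 in Chga (chr12:102554867-102554931, plus strand). Distances are from the RefSeq start of each window, which differs from the GENCODE M21 gene limits used for the gene positions in the rest of the text, and by those limits the elements of Scg2 and Chgb lie inside the annotated gene.
Scg2: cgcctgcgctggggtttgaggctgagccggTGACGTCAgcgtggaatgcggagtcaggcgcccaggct
Chgb: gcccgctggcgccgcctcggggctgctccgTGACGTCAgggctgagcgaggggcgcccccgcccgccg
Chga: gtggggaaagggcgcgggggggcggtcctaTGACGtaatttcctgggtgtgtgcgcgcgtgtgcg
The NR5A1 motif CAAGGTCA was in none of the 8 windows (1.56% of all windows), and the AP-1 motif TGANTCA was in that of Pcsk1n alone (7.81% of all windows). These matches describe the letters in these windows and were not tested as binding sites.

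The comparison of PE-/- with PE+/- mice asked whether the granule genes changed when gonadotropes lost NR5A1. By edgeR's quasi-likelihood test with Benjamini-Hochberg adjustment over all genes, 0 of the 9 genes passed an adjusted p of 0.05 in males, where 0.132% of 17392 genes did, and 0 of 9 passed in females, where 1.05% of 18085 genes did. At an unadjusted p of 0.05, 0 of 9 passed in males (6.14% of all genes) and 2 of 9 in females (16.1% of all genes), namely Chga and Cpe, both with higher values in PE-/- (7.75% of all genes had such a p with a positive fold change). Leaving out single libraries gave 0 to 1 such genes in males (1 when replicate 1 of either genotype was absent) and 1 to 3 in females (1 without PE+/- female replicate 2 or 3 or PE-/- female replicate 2 or 3). With DESeq2, 0 of 9 passed the adjusted threshold in males (1.19% of all genes) and 1 of 9, Chga, in females (7.96% of all genes). In males 3 of the 9 log2 fold changes lay above 0 (50.4% of all genes) and their median was -0.22, and in females 5 of 9 lay above 0 (50.2% of all genes) with a median of 0.52, beside medians near 0 over all genes (0.0027 and 0.0018). The libraries of both genotypes did not overlap for 1 gene in each sex: Scg2 in males, lower in PE-/- (2.02% of all genes were separated in this direction), and Chga in females, higher in PE-/- (9.64% of all genes).

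Chga (MSTRG.5829, chr12:102554969-102565028, mm10, plus strand, 8 exons) encodes chromogranin A, the acidic granule protein used as a general marker of endocrine cells. The PE+/- females had 1286, 619, 709.7 and 746 CPM of Chga and the PE-/- females had 1940.3, 1756 and 1948 CPM. All 3 PE-/- females lay above the highest PE+/- female, and PE+/- female replicate 1 was the highest control. The mean was 840.1 ± 302 CPM (SD, n = 4) in PE+/- and 1881 ± 109 CPM (SD, n = 3) in PE-/- females. The log2 fold change in edgeR was 1.15 ± 0.26 (SE, adjusted p = 0.0895).

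In males Chga was at 1542, 1191, 1067 and 1176 CPM in PE+/- and at 1789, 1491, 1472 and 1369 CPM in PE-/- libraries. The genotypes overlapped in males, since the highest PE+/- male exceeded 3 of the 4 PE-/- males. The log2 fold change was 0.30 ± 0.15 (SE) with an edgeR adjusted p of 0.872. The difference between the sexes in this response was 0.86 ± 0.29 (log2, SE) and had an edgeR adjusted p of 0.317 (unadjusted 0.0112). Chga was the only member with an unadjusted interaction p under 0.05, 1 of 9, where 10.1% of 19286 genes had one, and 0 of 9 passed the adjusted threshold with edgeR or with DESeq2 (0.161% and 2.08% of all genes). The unadjusted count was 2 of 9 without PE+/- male replicate 2 or PE+/- female replicate 1.

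The call for Chga in females depended on the procedure. It passed the adjusted threshold with DESeq2 (log2 fold change 1.15, adjusted p = 0.00329), with 1 edgeR fit on all 15 libraries (1.16, adjusted p = 0.0103) and in edgeR without PE+/- female replicate 1 (1.44, adjusted p = 0.0120), and the interaction also passed without that library (1.16, adjusted p = 0.0341). Leaving out any other single female library gave edgeR adjusted p values of 0.172 to 0.259 for Chga between genotypes in females. The direction was positive in every fit of the female libraries that was made, with log2 fold changes between 1.03 and 1.44. In the same female libraries the summed level of the 2 lactotrope markers was 21988 to 35140 CPM in PE+/- and 4492 to 5634 CPM in PE-/- mice. This sum was almost wholly Prl, the prolactin gene, which fell by 2.58 on the log2 scale (edgeR adjusted p = 0.00698), while Drd2 had a log2 fold change of 0.21 (adjusted p = 0.700). The 3 somatotrope markers (Gh, Ghrhr and Ghsr) summed to 59384 to 104862 CPM in PE+/- and 86366 to 174586 CPM in PE-/- females, overlapping ranges, and 0 of 3 passed the adjusted threshold. None of these markers was at 0 in a whole group, and their part in the Chga values was not tested.

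Scg2 (MSTRG.721, chr1:79434669-79440120, mm10, minus strand, 2 exons) encodes secretogranin II, the granin that is the precursor of secretoneurin and is abundant in gonadotropes. The PE+/- males had 8516, 6872, 7548 and 5395 CPM of Scg2 and the PE-/- males had 34.3, 3484, 3096 and 2494 CPM. Each PE-/- male lay below each PE+/- male, and PE-/- male replicate 1 was a further 72.7-fold below the lowest of its group. With that library included the log2 fold change was -1.64 ± 0.95 (SE) with an edgeR adjusted p of 0.922. Without it the PE-/- mean was 3025 ± 499 CPM (SD, n = 3), 42.7% of the PE+/- mean of 7083 ± 1312 CPM (SD, n = 4), and the log2 fold change was -1.23 ± 0.20 (SE) with an edgeR p of 0.000373, which did not pass adjustment (0.201). In DESeq2 with all 8 libraries the values were -1.64 and an adjusted p of 0.681.

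In females Scg2 was at 4465, 3378, 2069.6 and 4827 CPM in PE+/- and at 3410.2, 3340.1 and 19.97 CPM in PE-/- libraries. PE-/- female replicate 3 was 167-fold below the lowest of the other PE-/- females, which lay within the range of the PE+/- females. The log2 fold change was -0.71 ± 1.19 (SE, edgeR adjusted p = 0.845) with this library and -0.13 (edgeR adjusted p = 0.942) without it. Without both low libraries, an alternative chosen after seeing the data, the difference between the sexes in the response of Scg2 was 1.10 on the log2 scale (edgeR adjusted p = 0.343).

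The low values of Scg2 in 2 libraries amounted to 678 and 456 counts, where the other 13 libraries held 38008 to 148166. Cldn12, which encodes a claudin, was the gene with levels nearest to those of Scg2 over the 15 libraries (root mean square difference of centred log2 CPM 0.54). The spread of Scg2 about its own mean was 2.54, with the 2 low libraries included. Cldn12 was at 0.303 CPM in the same PE-/- male and at 0.350 CPM in the same PE-/- female. In the other 13 it was at 87.5 to 121 CPM, where Scg2 ranged more widely, from 2069.6 to 8516 CPM. Among 7139 genes with a mean of 20 CPM or more, 460 (6.44%) had a library at least 10-fold below the lowest other library of its group, and 1 of the 8 members in that range did. Between 29 and 68 such genes were found in each library, and the 2 libraries with low Scg2 had 38 and 49, so neither stood apart by this count. The summed level of the 5 gonadotrope markers (Nr5a1, Lhb, Fshb, Gnrhr and Cga) was 8979 to 16873 CPM in PE+/- and 1360.5 to 6818 CPM in PE-/- males, and 5860 to 8742 CPM and 2265 to 6947 CPM in females, with no marker at 0 in a whole group. Most of this sum was Cga, the alpha subunit gene that thyrotropes also use, with log2 fold changes of -0.70 in males and -0.37 in females (edgeR adjusted p = 0.970 and 0.701). Those of the other 4 markers ran from -7.19 to -4.75 in males and from -5.72 to -3.34 in females, and Fshb alone of the 4 did not pass the adjusted threshold (edgeR adjusted p = 0.0506 in males and 0.125 in females). Their part in the Scg2 values was not tested.

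Chgb (MSTRG.14184, chr2:132781278-132795079, mm10, plus strand, 5 exons) encodes chromogranin B, a granin that binds hormone precursors in forming granules. It was at 9298, 11520.0, 10659 and 6311 CPM in PE+/- males and at 14885, 10961, 8018 and 10626 CPM in PE-/- males. In females it was at 22757, 11967, 8052 and 14716 CPM in PE+/- and at 15280.4, 11133 and 12335 CPM in PE-/- libraries. The genotypes overlapped in both sexes, and the log2 fold changes were 0.23 ± 0.24 in males and -0.17 ± 0.34 in females (SE, edgeR adjusted p = 0.973 and 0.881). In the 2 libraries with low Scg2, Chgb was at 14885 and 12335 CPM, within or above the range of the rest of their groups.

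Scg3 (MSTRG.25796, chr9:75643189-75684056, mm10, minus strand, 12 exons) encodes secretogranin III, which anchors granin aggregates to the cholesterol-rich granule membrane. It ranged from 125 to 313 CPM in PE+/- males, 112 to 217 CPM in PE-/- males, 92.4 to 336 CPM in PE+/- females and 291 to 355 CPM in PE-/- females. The PE-/- females sat at the upper end of the controls, and the log2 fold changes between genotypes were -0.31 ± 0.30 in males and 0.60 ± 0.40 in females (SE, edgeR adjusted p = 0.972 and 0.542). Vgf (MSTRG.19584, chr5:137026392-137033351, mm10, plus strand, 5 exons) had log2 fold changes of -0.74 ± 0.57 in males and -0.71 ± 0.54 in females (SE, edgeR adjusted p = 0.972 and 0.601). Its group means were 1.82 to 5.73 CPM, and the libraries of the control groups varied by 72.2% (males) and 69.1% (females) of their mean (coefficient of variation).

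Among the convertase partners, Scg5 (MSTRG.13900, chr2:113776362-113829121, mm10, minus strand, 6 exons) encodes 7B2, the chaperone that convertase PC2 needs in order to mature. It had a mean of 964 ± 109.8 CPM (SD, n = 4) in PE+/- and 1027 ± 86.6 CPM (SD, n = 4) in PE-/- males, and of 1048 ± 110.5 CPM (SD, n = 4) and 927 ± 107 CPM (SD, n = 3) in the female groups. The ranges of the genotypes overlapped in both sexes, with log2 fold changes of 0.09 ± 0.12 and -0.18 ± 0.14 (SE, edgeR adjusted p = 0.983 and 0.604). Pcsk1n (MSTRG.26524, chrX:7919822-7924410, mm10, plus strand, 3 exons) encodes proSAAS, a granin-like inhibitor of convertase PC1/3. It was at 2322, 126, 434 and 769 CPM in PE+/- males and at 703, 883, 964 and 601 CPM in PE-/- males, so that all 4 PE-/- values lay within the range of the PE+/- values. In females it was at 126, 341, 509 and 640.2 CPM in PE+/- and at 413, 1123 and 957 CPM in PE-/- libraries, with 2 of the 3 PE-/- libraries above all controls. The log2 fold changes were -0.22 ± 0.71 in males and 1.04 ± 0.55 in females (SE, edgeR adjusted p = 0.988 and 0.413).

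Among the enzymes, Cpe (MSTRG.23936, chr8:64592542-64693054, mm10, minus strand, 9 exons) encodes carboxypeptidase E. It was at 1545, 154, 270.1 and 439.9 CPM in PE+/- males and at 534, 529.6, 555 and 354 CPM in PE-/- males. It was at 150.4, 218, 265 and 375 CPM in PE+/- females and at 302, 600.4 and 500.0 CPM in PE-/- females. Only 1 PE-/- female fell within the range of the controls, and the log2 fold change in females was 0.89 ± 0.34 (SE) with an edgeR p of 0.0337 and an adjusted p of 0.259. In males it was -0.29 ± 0.64 (SE, edgeR adjusted p = 0.988) and turned to 0.77 without PE+/- male replicate 1, with which that of Pcsk1n also turned, to 0.83.

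Pcsk1n and Cpe were high and low in the same libraries. Both were highest in PE+/- male replicate 1 (2322 and 1545 CPM), and both were lowest in PE+/- male replicate 2 (126 and 154 CPM) and PE+/- female replicate 1 (126 and 150.4 CPM), all of them controls. The root mean square difference of their centred log2 levels was 0.37, the smallest of any pair of members, where the spread of each about its own mean was 1.07 for Pcsk1n and 0.83 for Cpe. Over all 7139 genes compared, the genes nearest to Pcsk1n were Sumf1 (0.25) and Iscu (0.33), and those nearest to Cpe were Ccdc92 (0.31) and St3gal5 (0.32). Over these genes, deviations from the group means correlated at 0.25 between PE+/- male replicate 2 and PE+/- female replicate 1. No other 2 libraries of different groups correlated more highly. These likenesses describe 15 libraries that share a protocol and were not tested.

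**Figure D2:**
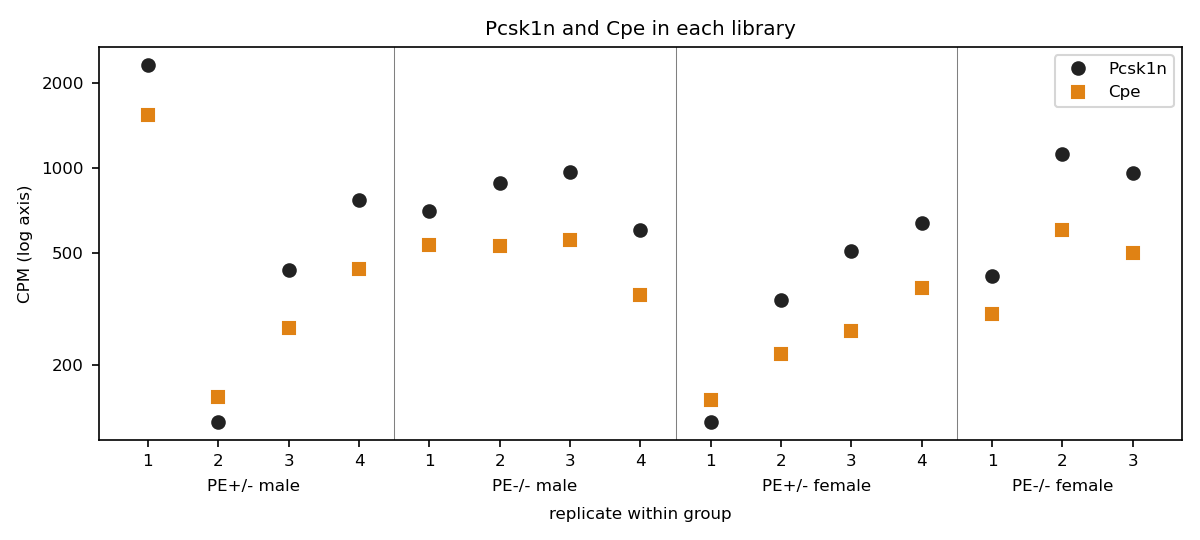
Level of Pcsk1n (circles) and Cpe (squares) in each library (CPM, log axis), with libraries in replicate order within the 4 groups. Both genes are highest in PE+/- male replicate 1 (2322 and 1545 CPM) and lowest in PE+/- male replicate 2 and PE+/- female replicate 1.

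Pam (MSTRG.956, chr1:97795114-98095646, mm10, minus strand, 26 exons) encodes the amidating enzyme and was steady except in 1 library. The PE+/- females had 13.1, 139, 129 and 174 CPM of Pam, and the other 14 libraries lay between 129 and 195 CPM. PE+/- female replicate 1 was 9.81-fold below the lowest of its group, with 168 counts. The mean of the other 3 PE+/- females was 147 ± 23.5 CPM (SD, n = 3), beside 164 ± 12.4 CPM (SD, n = 3) in PE-/- females and 168 ± 18.7 and 158 ± 24.2 CPM (SD, n = 4 each) in PE+/- and PE-/- males. The genotype effects were -0.09 ± 0.14 in males and 0.52 ± 0.68 in females (log2, SE, edgeR adjusted p = 0.987 and 0.789). The genes nearest to Pam, Tmem231 and Tgfbr1 (0.14 each), were at 6.1 and 10.7 CPM in the same control library and at no less than 65.6 and 124 CPM in all others.

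**Figure D3:**
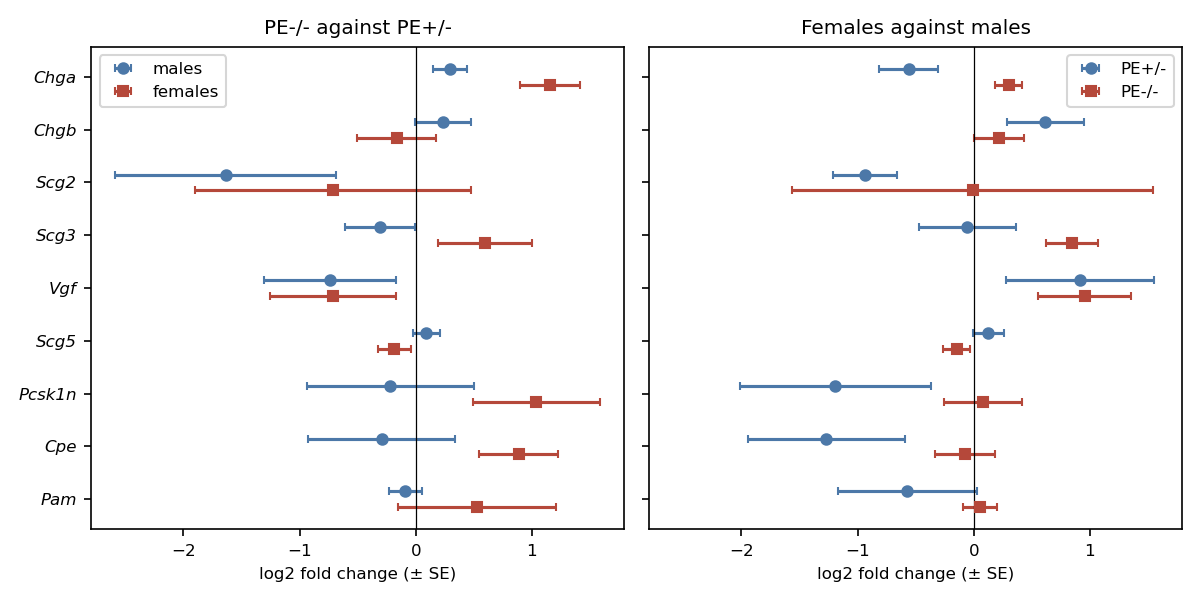
Log2 fold changes with SE from edgeR for the 9 genes, between genotypes in each sex (left) and between females and males in each genotype (right). Chga in females lies farthest above 0 for its SE (1.15 ± 0.26), and the wide bars of Scg2 in PE-/- comparisons go with its 2 low libraries.

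Females and males were also compared within each genotype. In PE+/- mice 0 of 9 genes passed the adjusted threshold with edgeR (0.67% of 17163 genes did) and 1 of 9 at an unadjusted p of 0.05 (13.5% of all genes), which was Scg2, and 2 of 9 without PE+/- male replicate 2 or PE+/- female replicate 1 or 3. Control females had 52.0% of the Scg2 level of control males, with no overlap (4.43% of all genes were separated in this direction), a log2 fold change of -0.94 ± 0.28 (SE) and an edgeR adjusted p of 0.191. DESeq2 gave -0.95 with an adjusted p of 0.0372, and Scg2 was the 1 of 9 that it called (5.38% of all genes). The 5 gonadotrope markers summed to 5860 to 8742 CPM in control females and 8979 to 16873 CPM in control males, although 0 of 5 passed the adjusted threshold with edgeR, and their part in the Scg2 values was not tested. The 5 posterior-lobe markers had mean sums of 63.9 CPM in control males and 12.1 CPM in control females. In PE-/- mice these means were 45.1 and 4.38 CPM. The ranges of the sexes overlapped in both genotypes, and the part of these markers in the sex comparisons was not tested. Cpe and Pcsk1n had log2 fold changes of -1.27 ± 0.68 and -1.19 ± 0.82 (SE, edgeR adjusted p = 0.473 and 0.592) that shrank to -0.19 and -0.13 in the fits nearest to 0, those without PE+/- male replicate 1.

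In PE-/- mice 0 of 9 genes passed the adjusted threshold with edgeR or DESeq2 (0.0494% and 0.227% of all genes), and 3 of 9 had an unadjusted p under 0.05 in edgeR (3.37% of 18217 genes), all with higher values in females (1.63% of all genes): Scg3, Chga and Vgf. This count was 1 of 9 without PE-/- male replicate 2 or 3, without PE-/- female replicate 1 or 3, and in the fit on all 15 libraries. Scg3 was at 166, 217, 112 and 203 CPM in PE-/- males and at 355, 291 and 295 CPM in PE-/- females. The sexes did not overlap (2.53% of all genes were separated in this direction), and the log2 fold change was 0.85 ± 0.23 (SE, edgeR adjusted p = 0.997). The same difference in PE+/- mice was -0.06 ± 0.42 (SE), and the difference between them was 0.92 ± 0.53 (log2, SE) with an edgeR adjusted p of 0.612. For Chga the females exceeded the males by 0.30 ± 0.12 and for Vgf by 0.96 ± 0.40 on the log2 scale (SE, edgeR adjusted p = 0.997 for each), with overlapping libraries for both.

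Of 35 other genes of peptide processing and granule formation, 0 passed the adjusted threshold with edgeR in any of the 5 comparisons, and their median log2 fold change was -0.05 in males and 0.08 in females. At an unadjusted p of 0.05, 3 of 35 had such a p in males, all lower in PE-/- (6.14% of all genes in either direction), and 7 of 35 in females, 5 higher and 2 lower in PE-/- (16.1% of all genes). Pcsk1, which encodes the convertase PC1/3 that proSAAS inhibits, was at 396, 384, 351 and 257 CPM in PE+/- males and at 273, 189, 179 and 150.01 CPM in PE-/- males. The genotypes overlapped in 1 library each, and the log2 fold change was -0.81 ± 0.21 (SE, edgeR adjusted p = 0.394). In females Pcsk1 was higher in all PE-/- libraries (222 to 263 CPM) than in any PE+/- library (109 to 213 CPM), by 0.42 ± 0.23 on the log2 scale (SE, edgeR adjusted p = 0.445). Genotypes were separated in this direction for 5 of the 35 genes and for 9.64% of all genes. The difference between the responses of Pcsk1 in the sexes was 1.24 ± 0.33 (log2, SE) with an adjusted p of 0.180 in edgeR. Pcsk1 was the 1 of the 35 genes past the threshold for this interaction in DESeq2 (2.08% of all genes).

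Control females had 51.0% of the Pcsk1 level of control males, again with no overlap (log2 fold change -0.97 ± 0.23, SE, edgeR adjusted p = 0.126). The sexes were separated in this direction for 2 of the 35 genes and for 4.43% of all genes. Pcsk2, the convertase PC2 that 7B2 assists, had log2 fold changes of 0.64 ± 0.33 in males and 0.33 ± 0.21 in females (SE, edgeR adjusted p = 0.884 and 0.519). Furin, a convertase of the constitutive pathway, was at 1.34 to 2.22 CPM in 4 libraries of 3 groups and lay between 21.4 and 32.4 CPM in the other 11. Its log2 fold changes of -0.86 ± 0.79 in males and -0.02 ± 1.10 in females (SE, edgeR adjusted p = 0.972 and 0.997) go with these 4 libraries.

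**Figure D4:**
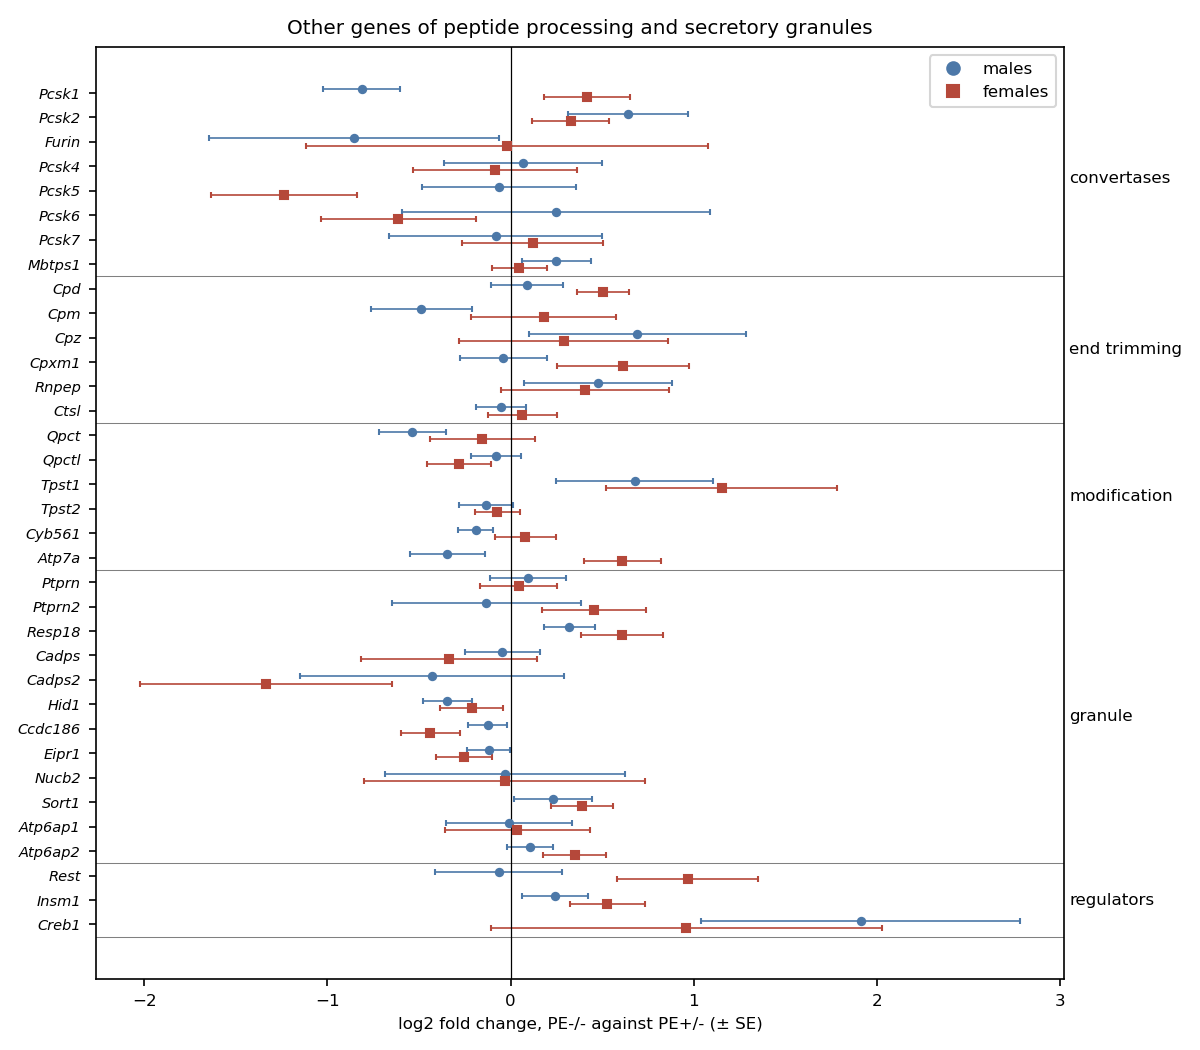
Log2 fold change with SE from edgeR of 35 further genes of peptide processing and granules, PE-/- against PE+/-, in males (circles) and females (squares), grouped by role. None passed an adjusted p of 0.05, and Pcsk1 at the top is at -0.81 in males and 0.42 in females.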

How the data were processed

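RNA of whole pituitary glands was made into libraries with the NEBNext Single Cell/Low Input kit and sequenced as pairs. Per the labels and the study's methods, the authors used cutadapt for trimming, STAR for alignment to mm10 and featureCounts for counts per gene. The deposited table holds whole-number values with MSTRG identifiers, treated here as estimated counts, since the value 5 is 1.52 times as frequent as the mean of 4 and 6, so they may not be plain read counts and no counting intervals were drawn from them. Counting that ignores strand cannot separate a gene from an antisense partner.

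Genes were filtered with filterByExpr (minimum count 10, minimum total 15), scaled by TMM and tested with edgeR 4.0.16 (R 4.3.3) on the libraries of each comparison, with the interaction on all 15, and adjusted by Benjamini-Hochberg (threshold 0.05). On simulated counts of 16939 genes for the male comparison, log2 changes of 1 and 2 were recovered in 3.16% of 95 and 69.8% of 96 genes, and on 17361 genes for the female comparison in 0% of 97 and 28.7% of 94. The changed genes were drawn at random from all genes kept, so these rates do not give the power for the 9 genes. DESeq2 1.42.0, other scalings and filters, division of the counts by 4, a replicate block and leaving out each library were alternatives. Likeness between genes used log2(CPM + 0.5). Named were all 9 genes, Nr5a1, Pcsk1, Pcsk2, Furin, any of the 35 pathway genes past the threshold, and the 2 genes most like each member; those shown were given where a result turned on them. Members and lists were chosen with earlier results of these data known. Positions are from GENCODE M21. Replicates of a group differed by 71.4 to 231 chi-square units per degree of freedom, so no library was a copy of another.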

Additional observations from a re-analysis of the deposited data

Results flagged for a closer look

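Groups of 4 libraries were examined for a library far from the rest, judged by the gap to its nearest neighbour as a share of the range. The cutoff was Dixon's 95% critical value, which chance exceeds in about 1 of 20 groups. All 9 genes were examined in each group of 4, so that a flag or more is expected from chance alone. The rule did not flag the low Scg2 library of the PE-/- males or the low Pam library of the PE+/- females. Scg5 in PE+/- males had its highest library, replicate 2, at 1129 CPM, with a gap of 0.912 of the range, while the other 3 lay between 900.3 and 920.4 CPM. Cpe in PE-/- males had its lowest library, replicate 4, at 354 CPM, with a gap of 0.874 of the range, below 3 libraries between 529.6 and 555 CPM.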

How the results depend on the processing

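Of the counts of members past the adjusted threshold, which were 0 in each comparison, that between genotypes in females became 1 (Chga) with DESeq2 and with 1 fit on all 15 libraries, that between sexes in PE+/- became 1 (Scg2) with DESeq2, and leaving out single libraries gave 0 to 1 for females and 0 to 1 for the interaction, the 1 being Chga without PE+/- female replicate 1. Of the 35 pathway genes, DESeq2 called 1 between genotypes in females (Cpd), where it called 7.96% of all genes. It called 3 between sexes in PE+/- (Pcsk1, Atp7a and Creb1), beside 5.38% of all genes, and 1 for the interaction (Pcsk1), beside 2.08%. The fit on 15 libraries called 1 between sexes in PE+/- (Pcsk1), where it called 421 of 19286 genes. For genotype in females that fit called 714 of 19286 genes. Over all genes DESeq2 called 206, 1431, 900, 41 and 392 where edgeR called 23, 189, 115, 9 and 31, for genotype in males, genotype in females, sex in PE+/-, sex in PE-/- and the interaction. The causes were not tested. No pairing of libraries by replicate number was evident, although low correlations cannot exclude it. Deviations of 21 same-numbered pairs correlated at -0.14 to 0.16, beside -0.20 to 0.25 for 63 other pairs, and 6 of 21 correlated best with their own number. The replicate block left Chga in females at 1.18 (edgeR adjusted p = 0.234). Over all genes the block fit called 1 of 18085 between genotypes in females and 0 of 17392 in males. It turned the sign of Pcsk1n (0.45) and Cpe (0.26) in males and of Pcsk1n (-0.14) and Furin (-0.051) between sexes in PE-/-, all far from the threshold. Library totals in place of TMM turned Vgf in the interaction to -0.082. Without both libraries low in Scg2, Scg2 between sexes in PE-/- was 0.16, Pcsk1n -0.09 and Vgf in the interaction -0.29. Leaving out single libraries gave log2 ranges that crossed 0, none of them called, of -0.58 to 0.83 for Pcsk1n and -0.61 to 0.77 for Cpe in males, -0.37 to 0.15 for Chgb and -0.56 to 0.52 for Furin in females, -0.42 to 0.19 for Scg3, -0.33 to 0.064 for Pcsk2 and -0.65 to 0.026 for Furin between sexes in PE+/-, -0.43 to 0.57 for Scg2, -0.20 to 0.40 for Pcsk1n, -0.30 to 0.16 for Cpe, -0.025 to 0.15 for Pam and -0.058 to 1.09 for Furin between sexes in PE-/-, and -0.43 to 0.60 for Vgf in the interaction. Groups of 3 or 4 libraries limit all of these comparisons.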

Other observations

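Faim2, which encodes a membrane protein that inhibits Fas-mediated cell death, was the gene whose level followed that of Chga most closely over the 15 libraries (root mean square difference of centred log2 CPM 0.15, beside a spread of Chga about its own mean of 0.51). It was at 106, 55.6, 55.2 and 77.0 CPM in PE+/- females and at 161, 162 and 171 CPM in PE-/- females, and in males at 117, 121, 84.6 and 111 CPM in PE+/- and at 183, 159, 143 and 131 CPM in PE-/- libraries. Erap1, an aminopeptidase of the endoplasmic reticulum, was the next gene (0.21), with 27.7 to 60.02 CPM in PE+/- females and 70.9 to 109 CPM in PE-/- females. These genes were chosen for this likeness, which is a description.

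The genes nearest to the other granins and to Scg5 were Mapk10 (0.23) and Pcdhb14 (0.25) for Chgb, Gm14617 (0.33) and Zfhx4 (0.36) for Scg3, Rab33b (0.53) and Myc (0.53) for Vgf, and Zfp141 (0.10) and Rpa2 (0.11) for Scg5, whose own spread was 0.15. Hmgn3, the gene second nearest to Scg2 (1.45), was at 5.1 and 1.6 CPM in the 2 libraries with low Scg2 but also at 7.2 CPM in PE-/- female replicate 1, where Scg2 was at 3410.2 CPM.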
